A study of Homo sapiens with 6 samples.

Results

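The 52 genes described here encode the hypoxia-inducible factor (HIF) subunits with the enzymes that control them (9 genes), the enzymes and transporters of glycolysis (25 genes), and other known targets of HIF (18 genes). They were listed by name and matched by symbol to their Ensembl identifiers in a table of 62754 genes, in which all 52 were present. Their RNA was measured in FAM60A-knockout HEK293 cells and in control HEK293 cells, with 3 libraries each. HEK293 cells grow attached and come from human embryonic kidney, and the cell line entry of the labels instead names HEK293T, a daughter line that makes SV40 large T antigen. Knockout cells formed a pool, not a clone, selected with puromycin after delivery of Cas9 and guide RNAs against 3 regions of FAM60A, and the labels give no treatment of the control cells beyond the word control. All cells were grown in DMEM with fetal bovine serum in a humidified incubator. The oxygen level is not stated, and no hypoxic culture is described. The study compared both states to learn which genes depend on FAM60A, a subunit of the Sin3/HDAC corepressor complex, which removes acetyl groups from histones.

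HIF is a pair of proteins, an oxygen-sensitive alpha subunit (HIF1A, EPAS1 or HIF3A) and a stable partner, ARNT. In oxygenated cells the prolyl hydroxylases EGLN1, EGLN2 and EGLN3 mark the alpha subunit, the VHL ubiquitin ligase then binds it and it is degraded, and HIF1AN hydroxylates it at another site that blocks its coactivators. When oxygen is short the alpha subunit accumulates and HIF raises the transcription of glucose transporters, glycolytic enzymes, angiogenic factors and of EGLN3 itself, one of the most oxygen-responsive genes in many cell types. Much of this control acts on the alpha protein, which RNA-seq does not measure.

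Total counts per library lay between 88361827 and 93346824. Levels are given as CPM, the usual scale of counts per unit of sequencing depth, with library sizes corrected by edgeR's TMM factors, and a level per length is CPM divided by the exon length of the gene in kilobases (RPKM). Differences are log2 fold changes of knockout against control with their standard error (SE), and a gene was called at an adjusted p of at most 0.05 in edgeR's quasi-likelihood test, adjusted by Benjamini-Hochberg over the 20992 genes that passed a filter on low counts. The sources do not say whether the libraries of a group came from separate cultures, so these p-values measure the spread between libraries, which may be technical. FAM60A itself, listed under its current symbol SINHCAF, was counted 11028, 10165 and 12792 times in the 3 controls, against 5684, 5793 and 5449 times in the 3 knockout libraries. Its RNA was therefore lower in each knockout library than in each control but still present. The study checked the knockout by immunoblot and qRT-PCR, and RNA counts do not measure the protein. Control replicate 3 stood apart from the other controls. Among the 21031 genes that averaged 10 counts or more, 1588 differed 4-fold or more between it and control replicate 1 and 1554 between it and control replicate 2, but 6 did so between the latter pair. By the same measure control replicate 3 differed from knockout replicates 1, 2 and 3 in 710, 664 and 723 genes, fewer than from the other controls. The values without it stand beside those results that it changed, and all members called with all libraries were also called without it.

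EGLN3 (ENSG00000129521) lies on the reverse strand of chromosome 14 of GRCh37, from 34393433 to 34931980. It is one of the genes that the study also measured by qRT-PCR, so a change in its RNA was known when it was listed. The primers of that assay are shown because they mark the stretch of the transcript that was amplified. They lie in the coding parts of exon 1 (chr14:34419612-34419631) and exon 2 (chr14:34400306-34400325) and bound 146 bases of a 2706-base transcript with 5 exons:
EGLN3 forward: ggcaaatactacgtcaagga
EGLN3 reverse: gcatcccaattcttgttcag

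EGLN3 stood at 9.49, 10.3 and 28.4 CPM in control replicates 1, 2 and 3 and at 51.9, 59.4 and 47.9 CPM in knockout replicates 1, 2 and 3. Every knockout library lay above every control, and control replicate 3 lay between control replicates 1 and 2 and the knockout libraries. EGLN3 rose, with means of 16.0 ± 10.7 CPM in control and 53.1 ± 5.89 CPM in knockout (SD, n = 3) and a log2 fold change of 1.73 (SE 0.44, edgeR adjusted p = 0.0447). When 1 library was left out this log2 fold change ranged from 1.44 (no control replicate 1) to 2.39 (no control replicate 3). The call was kept only without control replicate 3 and was lost without any other library, with an adjusted p between 6.99e-15 and 0.152 over the 12 alternatives. In bulk RNA, more cells expressing a gene and more RNA per cell cannot be told apart, here and for each gene below.

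Of the other prolyl hydroxylases, EGLN2 rose and EGLN1 was not called. EGLN1, the main HIF hydroxylase in most oxygenated cells, stood at 26.6, 23.5 and 23.6 CPM in the controls and at 30.9, 29.8 and 26.9 CPM in the knockout libraries. These groups did not overlap, but the gap between them was narrow, and EGLN1 was not called (log2 fold change 0.25, SE 0.11, edgeR adjusted p = 0.162). EGLN2 stood at 5.50, 4.82 and 5.93 CPM against 10.6, 10.4 and 13.0 CPM. Its libraries separated into groups of high and low values without an outlying control, and it rose by a log2 fold change of 1.06 (SE 0.17, edgeR adjusted p = 0.0133). Like EGLN3, it kept its call only without control replicate 3, while the other fits without 1 library gave log2 fold changes of 0.96 to 1.13. The readthrough gene RAB4B-EGLN2 covers 30.6% of the EGLN2 exons on the same strand and an unnamed gene 55.8% of the EGLN1 exons, so the split of reads at these loci is uncertain. These partners held at most 10 and 13 counts in a library, which does not show where reads of the shared exons were counted. The levels per length in the controls were 4.57 RPKM for EGLN1, 2.18 for EGLN3 and 0.824 for EGLN2, and in the knockout libraries 5.42, 7.21 and 1.72 RPKM, but for this reason the 3 genes cannot be ranked firmly. In control replicate 3 EGLN3 also held more counts than EGLN1, at a log2 ratio of 0.26, against -1.49 and -1.20 in control replicates 1 and 2.

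None of the HIF subunits was called at the RNA level. HIF1A (ENSG00000100644), the subunit best known for driving glycolytic genes, stood at 117.8, 107.2 and 126.3 CPM in the controls and 123.7, 128.7 and 119.8 CPM in the knockout libraries. These ranges overlapped, and the log2 fold change was 0.08 (SE 0.09, edgeR adjusted p = 0.570), which turned to -0.03 with library sizes that were not TMM-scaled. EPAS1, which encodes HIF-2 alpha, stood at 18.4, 17.1 and 14.8 CPM against 15.2, 17.2 and 17.7 CPM, a log2 fold change of -0.005 (SE 0.13, edgeR adjusted p = 0.984). HIF3A held at most 4 counts in any library and was not tested. ARNT, their shared partner, had a log2 fold change of 0.24 (SE 0.12, edgeR adjusted p = 0.203). Of these subunits ARNT alone was called, as higher, without control replicate 3.

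VHL, the substrate receptor of the ligase that degrades HIF alpha, stood at 18.4, 16.2 and 47.2 CPM in the controls and at 40.0, 34.9 and 42.2 CPM in the knockout libraries. Control replicate 3 was thus the highest of all libraries, the groups overlapped, and the log2 fold change of 0.52 was not called (SE 0.41, edgeR adjusted p = 0.411). With that library left out the log2 fold change of VHL was 1.14, which was called. HIF1AN stood at 87.7, 89.2 and 75.0 CPM against 68.5, 74.2 and 69.2 CPM. Its knockout libraries all lay below the controls, by a log2 fold change of -0.25 that was not called (SE 0.10, edgeR adjusted p = 0.138) and that became -0.35, called as lower, without control replicate 3. Of the 9 genes of the HIF system, EGLN2 and EGLN3 rose at the threshold, and in the comparison of all 6 libraries 7.96% of all genes tested were called higher and 8.67% lower.

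**Figure D1:**
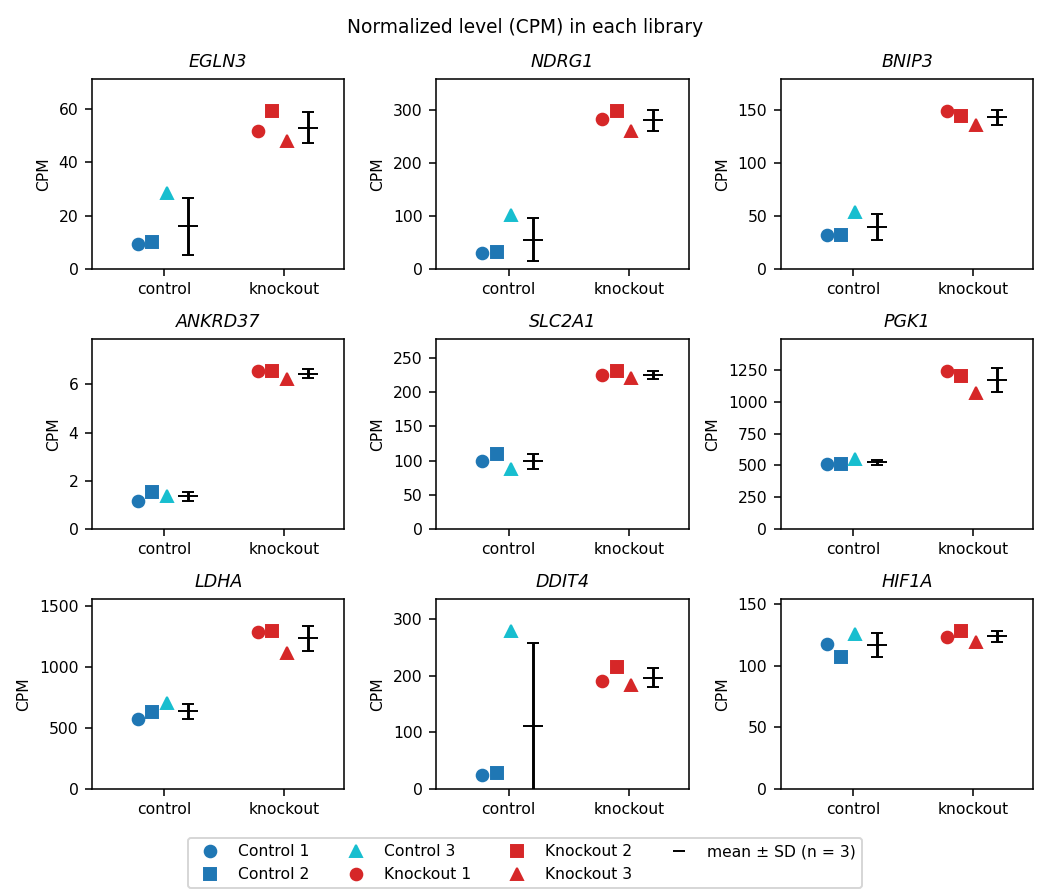
CPM of 9 genes in each library, with control libraries in blue shades and knockout libraries in red, the symbol marking the replicate number and the black bar the mean ± SD (n = 3). EGLN3, NDRG1 and DDIT4 had control replicate 3 above the other controls, SLC2A1, PGK1 and ANKRD37 had all controls together and below the knockout libraries, and HIF1A overlapped. The lower bar of DDIT4 in control runs below 0 and is drawn to the axis.

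Of the 25 genes of glycolysis, 13 rose, against 7.96% of all genes tested, and the median log2 fold change of the list was 0.82, against -0.008 over all genes tested. Their share of all counts was 1.17%, 1.25% and 1.34% in the 3 controls, in the order of the replicates, against 1.63%, 1.70% and 1.54% in the 3 knockout libraries. Every knockout library thus gave a larger share to glycolysis than every control. The genes that rose included a glucose transporter and a lactate transporter. With edgeR and all libraries no gene was called higher at the steps of GPI, of phosphofructokinase itself, of GAPDH or of pyruvate kinase, but DESeq2 called GPI and PFKP.

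At the entry, SLC2A1, which encodes the glucose transporter GLUT1, stood at 98.7, 110.1 and 87.9 CPM in the controls and at 224.6, 231.8 and 220.7 CPM in the knockout libraries. Control replicate 3 was the lowest library, and the groups were far apart (log2 fold change 1.19, SE 0.11, edgeR adjusted p = 0.0037). SLC2A3, the transporter GLUT3, stood at 45.7, 44.5 and 11.9 CPM against 33.6, 33.5 and 31.7 CPM, so that only control replicate 3 lay below the knockout libraries. The log2 fold change was -0.05 (SE 0.47, edgeR adjusted p = 0.954), and -0.48, called as lower, without control replicate 3, but 0.19 and not called without control replicate 1 or 2. Hexokinase HK1 rose from 138 ± 4.30 to 209 ± 8.64 CPM (SD, n = 3). Its log2 fold change was 0.60 (SE 0.08, edgeR adjusted p = 0.00987). HK2, the hexokinase that HIF is known to raise, stood at 49.7, 46.5 and 105.8 CPM against 128.9, 127.6 and 124.0 CPM. Here control replicate 3 lay near the knockout libraries, and HK2 was not called (log2 fold change 0.91, SE 0.32, edgeR adjusted p = 0.0997), whereas without that library the log2 fold change was 1.37 and called.

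In the phosphofructokinase step no catalytic subunit was called with edgeR and all libraries, but the regulatory enzymes PFKFB3 and PFKFB4 rose. PFKP, the platelet-type subunit, stood at 152.0, 154.8 and 304.8 CPM in the controls and at 352.7, 379.8 and 347.3 CPM in the knockout libraries, without a call (log2 fold change 0.82, SE 0.28, edgeR adjusted p = 0.0948). The liver-type subunit PFKL had a log2 fold change of -0.24 and the muscle-type subunit PFKM one of -0.03, both not called. PFKFB3 and PFKFB4 make fructose 2,6-bisphosphate, an activator of phosphofructokinase, and both rose. PFKFB3 stood at 42.2 ± 5.50 CPM in control and 75.3 ± 3.45 CPM in knockout, and PFKFB4 at 5.80 ± 2.37 and 15.4 ± 1.82 CPM (SD, n = 3). Their log2 fold changes were 0.83 (SE 0.12, edgeR adjusted p = 0.0101) and 1.41 (SE 0.30, edgeR adjusted p = 0.0274). PFKFB1 and PFKFB2, related enzymes that are not members, were not called (log2 fold changes -0.05 and -0.26). GPI, which interconverts glucose and fructose phosphates, stood at 260.5, 269.9 and 627.3 CPM against 684.3, 845.3 and 734.7 CPM. As with HK2 and PFKP, control replicate 3 lay closer to the knockout libraries, and GPI was not called (log2 fold change 0.97, SE 0.36, edgeR adjusted p = 0.112). Without control replicate 3 the log2 fold changes were 1.20 for PFKP and 1.48 for GPI, both called, and with DESeq2 HK2, PFKP and GPI were called with all libraries.

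Among the enzymes further down the route, ALDOC, the brain-type aldolase, rose from 2.49 ± 1.02 to 7.66 ± 0.929 CPM (SD, n = 3; log2 fold change 1.62, SE 0.35, edgeR adjusted p = 0.0286), and its log2 fold change was 1.29 without control replicate 3. ALDOA stood at 37.4 ± 8.92 and 49.2 ± 4.45 CPM and was not called. An unnamed gene with 205 to 290 counts in a library covers 42.8% of the ALDOA exons on the same strand, so the level of ALDOA is uncertain, as is its ratio to ALDOC. TPI1 and ENO1 rose by small amounts, with log2 fold changes of 0.48 (SE 0.11, edgeR adjusted p = 0.0314) and 0.49 (SE 0.13, edgeR adjusted p = 0.0465), neither of which was called without TMM, without a filter or with limma-voom, where ENO1 turned to -0.22 with quantile normalization. Pseudogenes of TPI1 held 14.3% of the counts of the gene and its copies, so the split of its reads is uncertain. PGK1, which makes the first ATP of the pathway, stood at 511.8, 512.5 and 549.9 CPM in the controls and at 1248, 1206 and 1070 CPM in the knockout libraries. The groups were well separated (log2 fold change 1.16, SE 0.10, edgeR adjusted p = 0.0037). PGAM1, which moves the phosphate group in the next step, stood at 203.3, 206.0 and 198.1 CPM against 404.4, 439.9 and 372.5 CPM, with control replicate 3 beside the other controls (log2 fold change 1.002, SE 0.10, edgeR adjusted p = 0.00416). ENO2 (log2 fold change 0.66) and PKM (log2 fold change -0.24), the enzyme that makes pyruvate, were not called, and without control replicate 3 the former was called higher and the latter lower.

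GAPDH, which the study used as the reference gene of its qRT-PCR and as a loading control, stood at 1907, 2127 and 2426 CPM in the controls and at 2752, 2963 and 2562 CPM in the knockout libraries. Every knockout library lay above every control. The log2 fold change of 0.36 was not called (SE 0.13, edgeR adjusted p = 0.104), and it was 0.42 and called without control replicate 3.

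At the exit, LDHA, the lactate dehydrogenase subunit induced by HIF, stood at 574.4, 631.0 and 700.8 CPM in the controls and at 1288, 1297 and 1115 CPM in the knockout libraries. The groups did not overlap (log2 fold change 0.96, SE 0.12, edgeR adjusted p = 0.0079), and LDHB was not called (0.35, SE 0.17, edgeR adjusted p = 0.188), though it was called higher, at 0.47, without control replicate 3. PDK1 and PDK3, kinases that close the entry of pyruvate into mitochondria, both rose. PDK1 stood at 27.4 ± 5.05 CPM in control and 52.2 ± 1.80 CPM in knockout, and PDK3 at 48.1 ± 11.7 and 102.8 ± 3.34 CPM (SD, n = 3). Their log2 fold changes were 0.93 (SE 0.14, edgeR adjusted p = 0.0126) and 1.10 (SE 0.17, edgeR adjusted p = 0.0135). PDK2 and PDK4, related kinases that are not members, were not called (log2 fold changes -0.21 and 0.17). Without control replicate 3 PDK2 was called lower and PDK4 higher. Of the lactate transporters, SLC16A1 (MCT1) rose from 333 ± 36.1 to 687 ± 51.3 CPM (SD, n = 3; log2 fold change 1.05, SE 0.12, edgeR adjusted p = 0.0062). SLC16A3 (MCT4), the transporter usually tied to hypoxia, stood at 2.29, 2.60 and 1.04 CPM against 0.902, 0.912 and 0.883 CPM, so that all knockout libraries lay below the controls. Its log2 fold change of -1.14 was not called (SE 0.35, edgeR adjusted p = 0.0749), but it was called lower with DESeq2 and, at -1.47, without control replicate 3. Of the 25 genes, 3 were called higher in the fit without knockout replicate 1 and in that without knockout replicate 3, and 5 without knockout replicate 2. The number was 8 without control replicate 1, 7 without control replicate 2 and 19 without control replicate 3. These counts stand beside different backgrounds, since the share of all genes tested that were called higher was 0.5%, 1.4% and 0.6% without knockout replicates 1, 2 and 3, 2.3% and 2.0% without control replicates 1 and 2, and 32.4% without control replicate 3. SLC2A1, PGK1 and PGAM1 were called in each of these 6 fits.

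**Figure D2:**
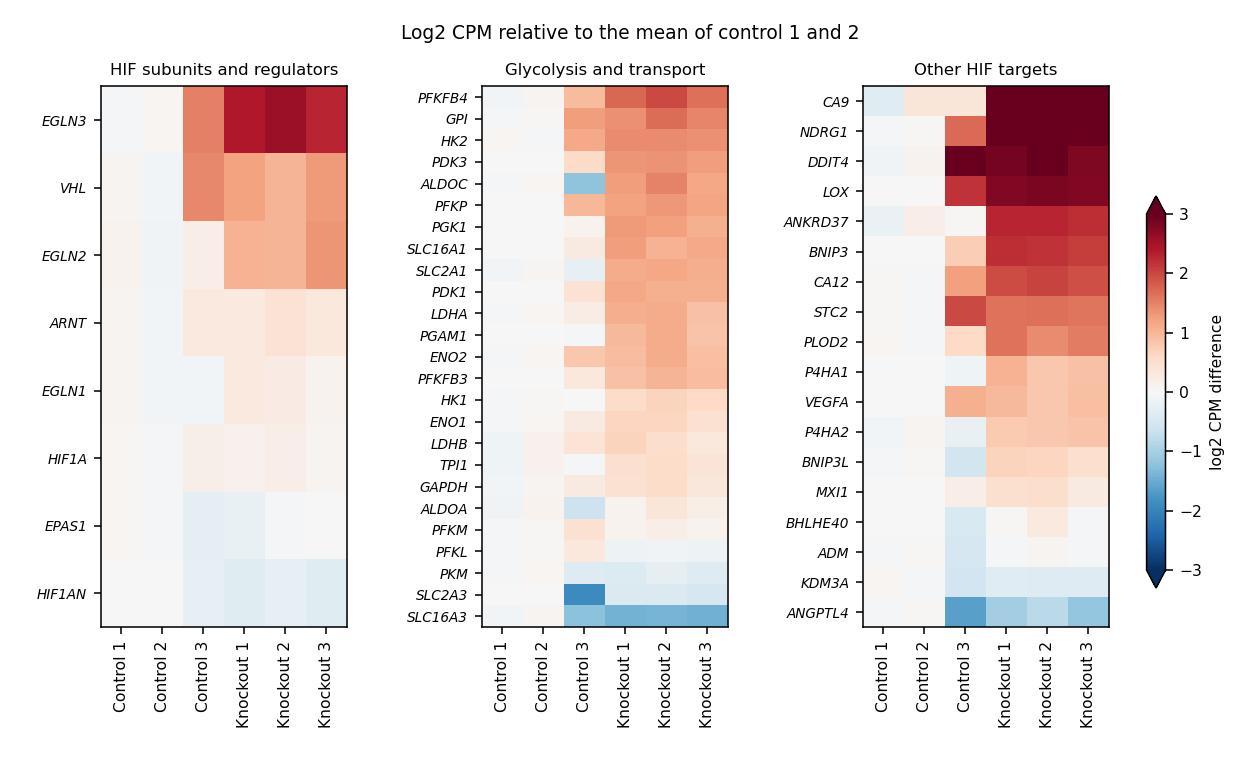
Log2 CPM of 51 of the 52 genes (HIF3A, at 4 counts or fewer, is left out) in each library, as the difference from the mean of control replicates 1 and 2. Red is higher and blue lower, and CA9 lies beyond the end of the colour scale in the knockout libraries. Control replicate 3 shares the red of the knockout libraries in rows such as VHL, GPI and DDIT4 and not in rows such as SLC2A1, PGK1 and ANKRD37.

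Of the 18 other HIF targets, 9 rose, where 7.96% of all genes tested did, with a median log2 fold change of 0.86 over the list and -0.008 over all genes. The largest rise was that of CA9, a carbonic anhydrase of the cell surface and a common marker of hypoxic cells. CA9 held 1, 3 and 3 counts in the controls and 77, 76 and 67 counts in the knockout libraries. It remained a rare transcript, at 0.846 ± 0.0797 CPM in the knockout libraries (SD, n = 3), and it passed the filter on low counts only through them. Its 7 control counts against 220 gave a ratio of 35.0, with an exact 95% interval of 16.7 to 88.1 that covers counting error only. Leaving out 1 library gave ratios from 27.1 (no control replicate 1) to 41.0 (no control replicate 2). CA9 is counted among the genes called, but because of the filter its call supports nothing. CA12, another cell-surface carbonic anhydrase, stood at 8.55, 8.20 and 19.8 CPM against 32.7, 34.2 and 32.0 CPM. Control replicate 3 lay between the other controls and the knockout libraries. CA12 rose by a log2 fold change of 1.43 (SE 0.36, edgeR adjusted p = 0.0419), which was 1.94 without that library, and its call was lost without any other library.

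ANKRD37, a small ankyrin-repeat gene known as a direct HIF-1 target, stood at 1.15, 1.53 and 1.36 CPM in the controls and at 6.54, 6.58 and 6.23 CPM in the knockout libraries. Control replicate 3 lay between the other controls, and the groups were far apart (log2 fold change 2.26, SE 0.18, edgeR adjusted p = 0.00277). NDRG1, a stress-responsive gene, stood at 30.4, 32.0 and 101.9 CPM against 283.3, 299.1 and 259.7 CPM. It rose by 2.36 (SE 0.50, edgeR adjusted p = 0.0274) and by 3.14 without control replicate 3, which held over 3 times the level of the other controls. NDRG1 lost its call without any other library. BNIP3, a receptor for the removal of mitochondria, stood at 32.2, 32.1 and 53.4 CPM against 149.7, 144.4 and 135.6 CPM. Its log2 fold change was 1.87 (SE 0.22, edgeR adjusted p = 0.00659) and 2.12 without control replicate 3, and pseudogenes held 9.16% of the counts of BNIP3 and its copies. Its relative BNIP3L rose from 49.2 ± 10.2 to 83.2 ± 5.82 CPM (SD, n = 3; log2 fold change 0.76, SE 0.17, edgeR adjusted p = 0.0313).

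Of 4 members that act on collagen, P4HA1, P4HA2 and PLOD2 rose and LOX was not called. P4HA1, the catalytic subunit of collagen prolyl 4-hydroxylase, stood at 85.1, 85.8 and 77.6 CPM in the controls and at 177.0, 149.3 and 158.3 CPM in the knockout libraries. The groups did not overlap and control replicate 3 was the lowest (log2 fold change 0.96, SE 0.10, edgeR adjusted p = 0.00552). P4HA2, its alternative subunit, rose by 0.88 (SE 0.10, edgeR adjusted p = 0.0066), and the collagen lysyl hydroxylase PLOD2 by 1.30 (SE 0.19, edgeR adjusted p = 0.0105). LOX, which cross-links collagen outside the cell, stood at 6.71, 6.88 and 30.6 CPM against 46.7, 48.6 and 46.7 CPM. Control replicate 3 lay well above the other controls, and the log2 fold change of 1.68 was not called (SE 0.61, edgeR adjusted p = 0.108), while it was 2.77 and called without that library and also called with DESeq2 and with limma-voom.

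In 3 further targets control replicate 3 lay above every knockout library. DDIT4, an inhibitor of mTORC1 that hypoxia and other stresses raise, stood at 24.5, 28.1 and 279.3 CPM in the controls and at 190.9, 215.1 and 182.7 CPM in the knockout libraries. Control replicate 3 was the highest library, about 10.6 times the mean of the other controls, and the log2 fold change was 0.83 (SE 0.93, edgeR adjusted p = 0.565) with it and 2.87 without it. STC2, a secreted glycoprotein, stood at 47.9, 45.0 and 182.7 CPM against 143.5, 145.4 and 140.9 CPM, again with control replicate 3 highest. VEGFA, the main angiogenic growth factor, stood at 57.9, 57.1 and 120.4 CPM against 112.2, 101.2 and 106.9 CPM. The log2 fold changes were 0.64 for STC2 (SE 0.55, edgeR adjusted p = 0.447) and 0.44 for VEGFA (SE 0.30, edgeR adjusted p = 0.337), and 1.59 and 0.86, both called, without control replicate 3.

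ADM, a vasodilator peptide and a frequent hypoxia marker, stood at 17.5, 18.5 and 12.7 CPM against 17.6, 18.9 and 17.4 CPM, and the histone demethylase KDM3A at 82.1, 75.3 and 52.5 CPM against 61.4, 59.8 and 59.9 CPM. Neither was called, at log2 fold changes of 0.15 (SE 0.17, edgeR adjusted p = 0.563) and -0.21 (SE 0.17, edgeR adjusted p = 0.417). MXI1 (0.35), a repressor of the MYC network, BHLHE40 (0.24), a transcriptional repressor, and ANGPTL4 (-0.67), a regulator of lipoprotein lipase, were not called either. The value of ADM turned to -0.03, still not called, without control replicate 3. In the same fit MXI1 was called higher and KDM3A (-0.41) and ANGPTL4 (-1.08) lower. Of the 18 targets, 3 were called higher without knockout replicate 1 and 3 without knockout replicate 3, these being CA9, ANKRD37 and P4HA1 in each case, of which CA9 entered the test only through the knockout libraries. The number was 5 without knockout replicate 2, 6 without control replicate 1, 6 without control replicate 2 and 14 without control replicate 3. In the same fits 1.4%, 2.3%, 2.0% and 32.4% of all genes tested were called higher, and 0.5% and 0.6% without knockout replicates 1 and 3.

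Over all 52 genes, 51 were tested and 24 were called higher in the knockout libraries, where 7.96% of all genes tested were called higher. The number of members called lower was 0 with edgeR and 1, SLC16A3, with DESeq2, and 2 members, SLC16A3 and HIF1AN, were lower at an unadjusted p under 0.05. Of the 24, 15 (62.5%) had a log2 fold change of at least 1, as had 42.0% of all genes called higher, which are 3.34% of all genes tested. In counting libraries without a model, 33 of the 52 had every knockout library above every control, against 21.5% of all genes tested, and 3 (HIF1AN, PFKL and SLC16A3) had every knockout library below, against 20.1%. The median log2 fold change of the members was 0.76. Library sizes without TMM scaling moved the median of all genes from -0.008 to -0.12 and that of the members to 0.65, so the members moved with the scaling and kept nearly the same distance from all genes. The share of higher genes among all calls was 47.9% in the main fit and 31.6% without TMM.

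Without control replicate 3, 37 members were called higher and 6 lower, and all 24 members called with all libraries were among the 37. Leaving CA9 aside, the log2 fold changes of these 24 then ran from 0.44 for TPI1 to 3.14 for NDRG1, with 1.08 for SLC2A1, 1.17 for PGK1, 1.11 for SLC16A1, 1.06 for PDK1, 1.28 for PDK3, 1.77 for PFKFB4, 0.92 for PFKFB3, 0.78 for P4HA2 and 0.56 for BNIP3L. The median was 0.92 over the members, 0.95 over glycolysis and 1.19 over the other targets. The background grew as well, to 32.4% of all genes tested called higher, 33.2% lower and 65.6% in either direction, and 13.1% were higher by a log2 fold change of at least 1, as were 23 members. Leaving out control replicate 1 or 2 left 14 and 13 members called higher, where 2.3% and 2.0% of all genes tested were called higher. Leaving out knockout replicate 1, 2 or 3 left 6, 10 and 6, where 0.5%, 1.4% and 0.6% of all genes were. Among the fits without 1 library, EGLN2, EGLN3, PFKFB4, ALDOC, TPI1, ENO1, CA12, BNIP3L and NDRG1 kept their calls only without control replicate 3. SLC2A1, PGK1, PGAM1, ANKRD37 and P4HA1 were called in each of these fits. CA9 was called in them too, but it entered the test only through the knockout libraries.

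**Figure D3:**
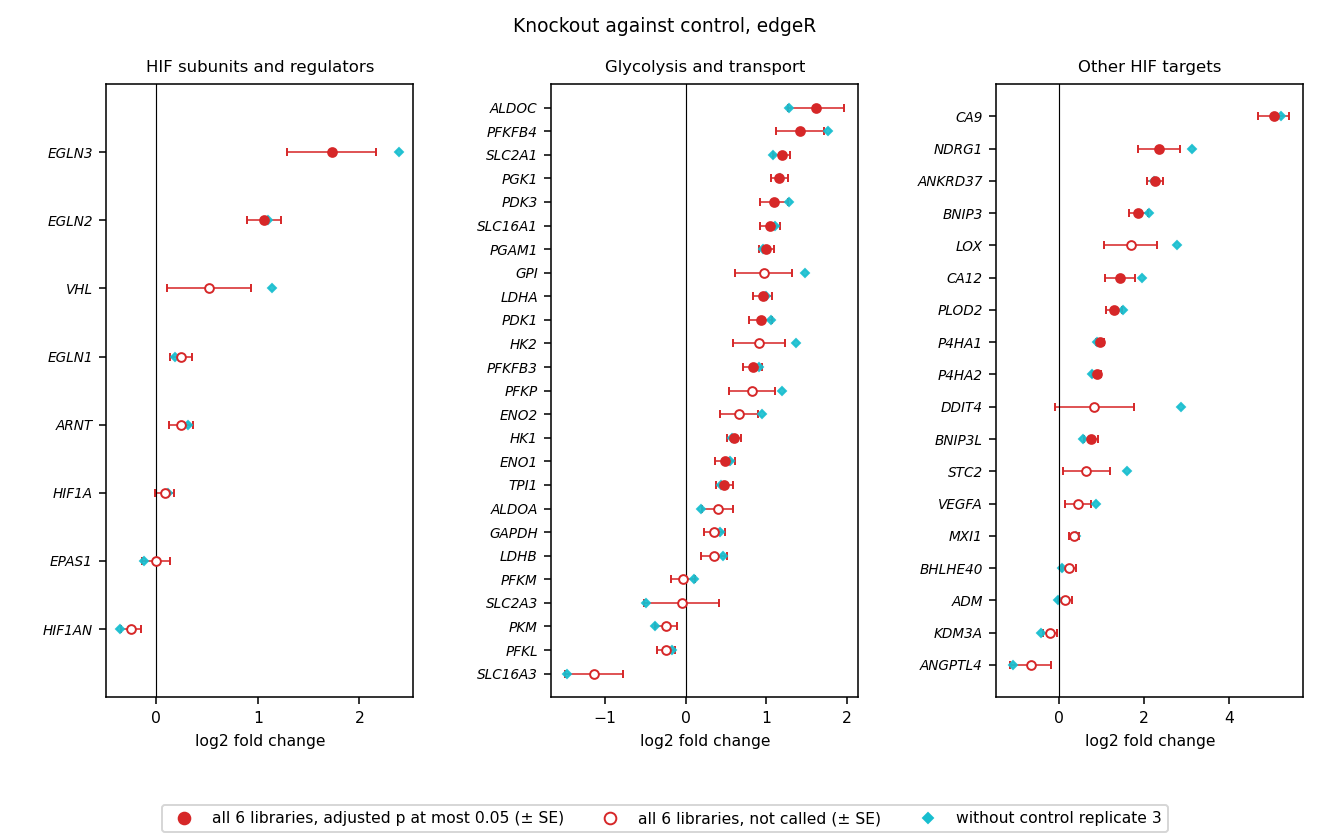
Log2 fold change of knockout against control for 51 members by list, from edgeR with all 6 libraries (circles with SE, filled where called) and without control replicate 3 (diamonds). Circles lie right of 0 for 42 members, and the diamond lies furthest from its circle for DDIT4, at 2.87 against 0.83.

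Whether EGLN3 moved with other HIF targets was examined over 31 further members known as HIF targets. Of these, 17 were called higher, against 7.96% of all genes tested. Every knockout library lay above every control, as in EGLN3, in 22 of the 31 and in 21.5% of all genes, and below in 1 (SLC16A3) and in 20.1% of all genes. The number of the 31 called higher was 5 without knockout replicate 1 or 3, 8 without knockout replicate 2, 11 and 10 without control replicates 1 and 2, and 7 when replicate numbers were fitted as a block, a fit that called 1.1% of all genes higher. Without control replicate 3 it was 23, with 4 called lower, and the shares of all genes in the fits without 1 library are those given for glycolysis. The median log2 fold change of the 31 was 0.89. Of the 17 called higher, 10 reached 1, where 3.34% of all genes tested were called higher and reached 1. LOX also reached it, at 1.68, without a call. The log2 fold change of EGLN3, 1.73, was exceeded by those of NDRG1, ANKRD37 and BNIP3, and its ratio of levels by that of CA9. This order changed without control replicate 3, where EGLN3 stood at 2.39. Leaving CA9 aside, it was then exceeded by NDRG1 (3.14), DDIT4 (2.87) and LOX (2.77), but not by ANKRD37 (2.23) or BNIP3 (2.12).

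EGLN3 was then compared with each member across the 6 libraries, by the root mean square difference of log2 CPM after centring each gene on its own mean. The nearest were CA12 (0.21), LOX (0.24), BNIP3 (0.28), PFKFB4 (0.29) and NDRG1 (0.35), and the farthest was SLC16A3 (1.73). SLC2A1 lay at 0.69, PGAM1 at 0.70 and P4HA1 at 0.74. The measure uses the same 6 libraries, so that near genes share the place of control replicate 3 with EGLN3 by choice, and this order is a description.

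The place of control replicate 3 was expressed on a scale where 0 is the mean log2 CPM of control replicates 1 and 2 and 1 the mean of the knockout libraries. EGLN3 lay at 0.63. Of the 37 members called higher without control replicate 3, this library lay below 0 in 7, among them BNIP3L and ALDOC at -0.93 and -0.92, and between 0 and the midpoint in 14, among them HK1 at 0.01, PGK1 at 0.09 and LDHA at 0.21. It lay between the midpoint and 1 in 12, among them NDRG1 at 0.54 and GPI at 0.83, and beyond 1 in DDIT4 (1.18), VEGFA (1.20), STC2 (1.22) and VHL (1.24). Control replicate 3 was thus nearer to the other controls in 56.8% of these members and in 35.1% of all 7019 genes called higher in the same fit, with medians of 0.44 and 0.79.

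**Figure D4:**
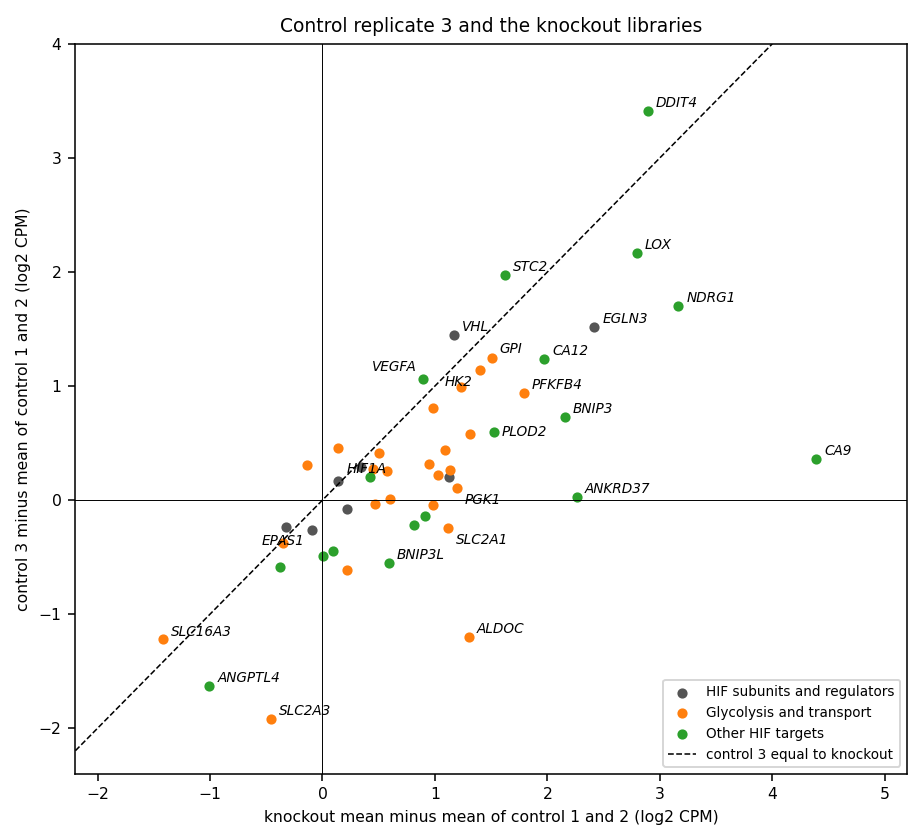
Difference of control replicate 3 (vertical axis) and of the knockout mean (horizontal axis) from the mean of control replicates 1 and 2, in log2 CPM, for the members other than HIF3A. On the dashed line control replicate 3 equals the knockout mean, as for VHL, STC2 and DDIT4 slightly above it, while ANKRD37, PGK1 and SLC2A1 lie near the level of 0 on the vertical axis and EGLN3 lies between.

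Ratios between related genes within a library do not depend on scaling between libraries. In 10 of 15 pairs the ratio of counts did not overlap between the groups, with 8 ratios higher and 2 lower in the knockout libraries. Levels of single genes did not overlap in 21.5% of all genes tested with the knockout libraries above and in 20.1% with them below. The same shares over other pairs of genes were not computed, and these 15 were chosen with earlier results of these data known. The 10 of 15 ratios are thus a description without a background of pairs. Each of these 10 had p = 0.1 in a two-sided exact permutation test, the smallest value that 3 libraries against 3 allow, and 0.15 after Benjamini-Hochberg adjustment over the 15 pairs, so none could pass the threshold. The log2 ratio of EGLN3 to EGLN1 went from -0.81 ± 0.94 to 0.86 ± 0.13 (SD, n = 3). That of PFKP to PFKL went from -0.47 ± 0.40 to 0.67 ± 0.05, and that of PFKP to PFKM from 1.09 ± 0.31 to 2.01 ± 0.02. For ALDOC to ALDOA it went from -3.98 ± 0.35 to -2.69 ± 0.09.

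The log2 ratio of LDHA to LDHB was 3.93 ± 0.13 in the controls and 4.53 ± 0.08 in the knockout libraries (SD, n = 3). Its size is uncertain, since an unnamed gene covers 33.4% of the LDHB exons on the same strand. The ratio of BNIP3 to BNIP3L went from -0.35 ± 0.74 to 0.79 ± 0.04, with control replicate 3, at 0.51, on the side of the knockout libraries. PFKFB4 to PFKFB3 and PDK3 to PDK1 were also higher, by 0.64 and 0.18. The 2 lower ratios were those of SLC16A3 to SLC16A1, which went from -7.49 ± 0.87 to -9.57 ± 0.12, and of CA12 to CA9, whose control values rest on 1 to 3 CA9 counts. In HK2 to HK1, ENO2 to ENO1, SLC2A3 to SLC2A1, P4HA2 to P4HA1 and EPAS1 to HIF1A the groups overlapped. In the ratios of HK2 to HK1, of ENO2 to ENO1 and of SLC2A3 to SLC2A1 control replicate 3 lay beyond the knockout libraries.

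**Figure D5:**
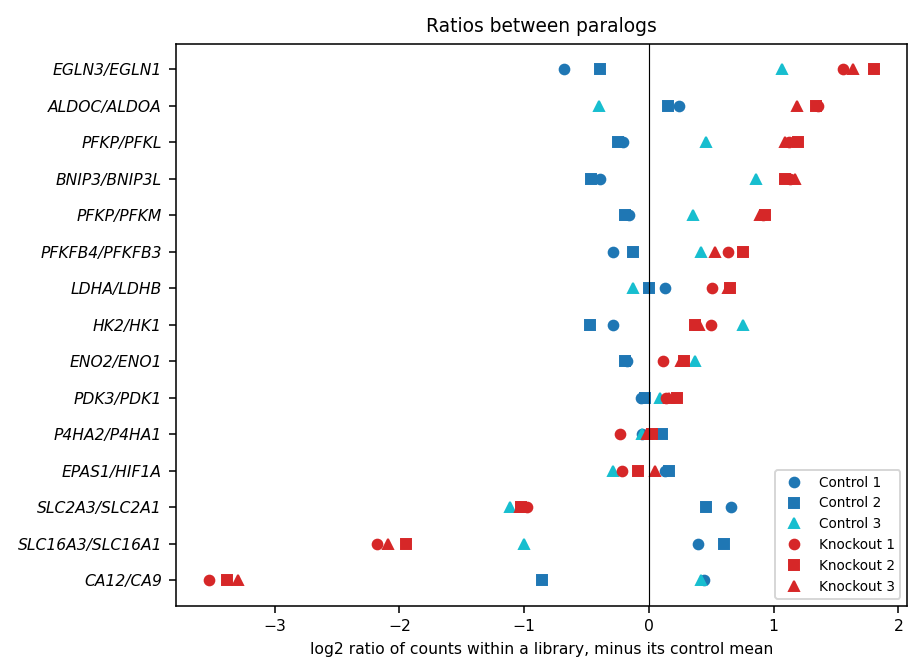
Log2 ratio of the counts of 2 related genes within a library, minus its mean over the 3 controls, for 15 pairs. Control libraries are blue, knockout libraries red, and symbols mark the replicate number. In 10 pairs the red symbols do not overlap the blue ones, and in BNIP3/BNIP3L and EGLN3/EGLN1 control replicate 3 lies close to the red symbols.

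HIF binds DNA at a short motif, and of the forms of its core only ACGTG was searched. The letters were searched on both strands, so that ACGTG or CACGT on the strand of the gene counts, and the palindrome CACGTG counts on both. The windows were those of RefSeq on GRCh38.p14, from 250 bases before to 50 bases after each transcription start. Of the 46 members with a window, 27 (58.7%) held the letters, against 24.9% of 27305 genes, and of single windows 33 of 81 (40.7%) against 21.4% of 35116. Members called higher held them in 13 of 21 genes and other members in 14 of 25. The windows of EGLN3, SLC2A1 and PGAM1 held no match, which says only that these letters are not in these 300 bases. A match is a run of letters, not a measured site of binding.

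The stretches around the matches are shown for 6 members that rose, among them ANKRD37, PGK1 and P4HA1, which were called in each fit without 1 library. Capitals mark the letters, and each sequence reads 5′ to 3′ on the strand of its gene. On GRCh38.p14 they lie at chr9:35673895-35673927 (forward), chr4:185396664-185396717 (forward), chrX:78104031-78104084 (forward), chr10:73096933-73096967 (reverse), chr10:131982037-131982072 (reverse) and chr11:18394363-18394509 (forward), in the order given:
CA9: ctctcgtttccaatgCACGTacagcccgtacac
ANKRD37: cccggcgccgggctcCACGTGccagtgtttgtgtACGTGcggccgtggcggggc
PGK1: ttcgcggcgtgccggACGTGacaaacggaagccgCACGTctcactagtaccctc
P4HA1: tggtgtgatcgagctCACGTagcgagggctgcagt
BNIP3: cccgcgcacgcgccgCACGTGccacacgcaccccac
LDHA: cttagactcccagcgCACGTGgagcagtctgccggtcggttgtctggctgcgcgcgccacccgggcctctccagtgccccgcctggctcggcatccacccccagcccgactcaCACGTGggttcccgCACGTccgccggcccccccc

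The match in CA9 began 18 bases before the transcription start and that in P4HA1 86 bases before it. ANKRD37 held the palindrome and a single copy downstream of it, PGK1 held a copy on each strand in this stretch, and LDHA held 2 palindromes and a further copy.

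A further list of 40 genes known to respond to hypoxia, drawn up beside the members, was examined next. This list was chosen with earlier results of these data known, so its counts are a description and not independent support. Of its 39 genes that were tested, 21 rose and 2 fell, against 7.96% and 8.67% of all genes, and the median log2 fold change was 0.74. Among the genes called, the largest changes were those of MIR210HG, the host gene of the hypoxia-induced miR-210, which rose from 1.11 ± 0.171 to 6.24 ± 0.315 CPM (SD, n = 3; log2 fold change 2.49, SE 0.19, edgeR adjusted p = 0.00264), and of PPFIA4, STC1, HILPDA and PPP1R3C. PPFIA4, a liprin, had a log2 fold change of 1.78, and STC1, a relative of STC2, one of 1.74. HILPDA, an inhibitor of lipolysis on lipid droplets, had one of 1.62 and PPP1R3C, which directs glycogen synthesis, one of 1.58. Of the 6 fits without 1 library, MIR210HG and HILPDA were called in 6, STC1 in 4, PPP1R3C in 2 and PPFIA4 in 1. EDN1, the precursor of endothelin-1, held 182, 168 and 15 counts in control replicates 1, 2 and 3 against 18, 17 and 23 in knockout replicates 1, 2 and 3, a log2 fold change of -2.49 that was not called (SE 0.84, edgeR adjusted p = 0.0908) and that was -3.05, called as lower, without control replicate 3. EDN1 was named after its values were seen. The 2 genes that fell were CITED2 (-1.12), itself a HIF target that competes with HIF for its coactivator, and KDM4B (-0.53). Among the fits without 1 library, CITED2 kept its call only without control replicate 3 and KDM4B only without control replicate 1 or 3, and neither was called in the block fit. In fits without 1 library the number of higher calls lay between 4, without knockout replicate 1 or without knockout replicate 3, and 28, without control replicate 3. Of all genes 0.5% and 0.6% were called higher in the former fits and 32.4% in the latter. Without control replicate 3 the list also had 8 genes called lower, 4 of them with a log2 fold change of -1 or beyond, where 33.2% of all genes were called lower, and its median was 0.91.

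Among 14 further regulators of HIF, 2 (14.3%) rose and 1 fell, numbers too small to be read against the 7.96% and 8.67% of all genes. Without control replicate 3 the list had 5 higher and 5 lower, where 32.4% and 33.2% of all genes were called. HSP90AA1, a chaperone of HIF1A, rose by a log2 fold change of 0.88 (SE 0.15, edgeR adjusted p = 0.0151), and ELOB, a partner of VHL in its ligase, by 0.48 (SE 0.09, edgeR adjusted p = 0.0195). SIAH1, a ubiquitin ligase that acts on the prolyl hydroxylases, fell by 0.63 on the log2 scale (SE 0.14, edgeR adjusted p = 0.0293). These 3 calls were kept only without control replicate 3 among the fits without 1 library.

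The cells were checked against markers. The summed level of 9 markers of the HEK293 line was 1688, 1737 and 969 CPM in the 3 controls against 794.6, 895.2 and 755.0 CPM in the 3 knockout libraries, with KRT8 the most abundant (616 CPM in control, 353 CPM in knockout). All 9 were detected, and the sum, which VIM and KRT8 dominate, was lower in control replicate 3 and in the knockout libraries. INA, LHX1 and NEFM were called lower in the knockout libraries. Without control replicate 3, VIM (-1.38), KRT8 (-1.08), KRT18 (-0.90) and EYA1 (-0.54) were also called lower. Control replicate 3 was the highest library in NEFL (142.8 CPM, against 78.6 and 80.7 in the other controls), PAX2 (5.97 against 1.48 and 1.68) and INA (46.6 against 38.5 and 36.4). Markers of blood cells summed to at most 1.81 CPM, of endothelium to at most 1.51 CPM and of hepatocytes to at most 0.267 CPM in any library. Markers of fibroblasts summed to 22.1 to 29.4 CPM, most of it COL1A1 in the controls, while COL1A2 and THY1 held at most 3 counts in any library. Within this list COL1A1 fell (log2 fold change -0.66, edgeR adjusted p = 0.0361), LUM rose (2.23, edgeR adjusted p = 0.0463), and DCN went from 0, 1 and 1 counts in the controls to 30, 33 and 33 in the knockout libraries. PTPRC, the common marker of white blood cells, held at most 9 counts and CDH5 of endothelium at most 21. The part of these differences in the results above was not tested. On the opposite strand, exons of ARHGEF39 covered 35.7% of the CA9 exons and those of UFSP2 40.3% of the ANKRD37 exons. The libraries were made strand-specific, but whether counting used the strand is not given in the sources used here, so reads of these partners cannot be told apart. ARHGEF39 held 1248 to 1632 and UFSP2 1811 to 2183 counts in a library. CSNK1D, whose exons covered 5.2% of those of SLC16A3 on the opposite strand, held 32161, 34401 and 20801 counts in control replicates 1, 2 and 3 against 18595, 20834 and 21333 in knockout replicates 1, 2 and 3, and SLC16A3 held 223, 250 and 100 against 76, 80 and 78. In both genes control replicates 1 and 2 were the highest libraries, and the part of CSNK1D in the SLC16A3 counts was not tested.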

How the data were processed

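Libraries (3 control, 3 FAM60A-knockout) were grouped by their labels. The methods describe strand-specific sequencing of poly(A) RNA and quantification on hg38 by Salmon, the submitters' processing notes name hg38 with STAR 2.7.10b and featureCounts 2.0.0, and the extraction protocol names hg19. The authors deposited raw whole-number counts, and 60878 of 62754 genes had a symbol. Total counts per library were 88361827 to 93346824, and intervals cover counting error only.

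The members, the lists and the pairs were chosen with earlier results of these data known. Genes were tested with edgeR 4.0.16 in R 4.3.3, after TMM scaling and filterByExpr at a minimum count of 10. Log2 CPM used a prior count of 2, and log2 ratios an offset of 0.5 counts. Alternatives were DESeq2 1.42.0, library size in place of TMM, limma-voom after quantile normalization (limma 3.58.1), a filter of at least 10 counts in every library or none, the replicate number as a block, and each library left out. Fits were tested on simulated data. Named were FAM60A, EGLN3, the HIF system, GAPDH, each member called with all libraries, or called with log2 fold changes of 1 or more in size without control replicate 3, members of non-overlapping pairs, the 5 nearest to EGLN3 and up to 5 called genes per further list. Other members were named after their values were seen, as were PFKFB1, PFKFB2, PDK2, PDK4 and the 6 promoters chosen. Coordinates and exon lengths come from GENCODE on GRCh37, and promoter windows from RefSeq on GRCh38.p14, with 6 members lacking a window. Python 3.11.15, pandas 2.3.3, numpy 2.4.6, scipy 1.17.1 and matplotlib 3.10.9 were used. Raw reads, qRT-PCR and proteomic data were not analysed here. A listed gene is not reported here.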

Additional observations from a re-analysis of the deposited data

How the results depend on the processing

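Of the 24 members called higher, 24 were also called with DESeq2, 22 with limma-voom and quantile normalization, 22 without TMM, 22 without a filter and 23 with at least 10 counts in every library, where CA9 was not tested. DESeq2 called 29 members higher and 1 lower, and of all genes 11.7% higher, against 7.96% with edgeR. In fits without 1 library the number called higher lay between 6 and 37 and the number called lower between 0 and 6, both highest without control replicate 3, in the fit where the background also grew. The replicate numbers were also fitted as a block, although deviations of same-numbered libraries were not correlated (r = 0.01, 0.03 and -0.04), so the numbers are not taken to pair the libraries. With the block 9 members and 1.1% of all genes were called higher, and EGLN3 had a log2 fold change of 1.93 (edgeR adjusted p = 0.078, over all alternatives 6.99e-15 to 0.152). Without 1 library EGLN3 lay between 1.44 and 2.39. Among the 51 members tested, directions turned in 6, none of them called in a fit where it turned: HIF1A to -0.026 without TMM, ENO1 to -0.22 with quantile normalization, EPAS1 to 0.002 with at least 10 counts in every library and between -0.117 and 0.069 without 1 library, PFKM between -0.15 and 0.11 without 1 library, SLC2A3 to 0.23 with quantile normalization, 0.165 with the block and between -0.485 and 0.189 without 1 library, and ADM between -0.0298 and 0.248 without 1 library. The cause was not tested. Of 599 values for the 50 tested members besides EGLN3 over 12 alternatives, 476 kept direction and side of the threshold, 85 lost the call, 26 gained it and 12 turned in direction. Depth limits CA9, with 1 to 3 counts in a control, and HIF3A, with at most 4 counts in any library.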

Other observations

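Beside glycolysis, enzymes of side branches and related steps of sugar metabolism were measured, and those named here are not the whole of that list. BPGM, which makes 2,3-bisphosphoglycerate from an intermediate of glycolysis, fell from 28.9 ± 3.69 to 16.0 ± 0.884 CPM (SD, n = 3; log2 fold change -0.86, SE 0.13, edgeR adjusted p = 0.0123). GPD2, the mitochondrial glycerol-phosphate dehydrogenase, rose from 70.8 ± 6.84 to 98.5 ± 1.96 CPM (log2 fold change 0.48, SE 0.10, edgeR adjusted p = 0.0254). GPD2 kept its call only without control replicate 3 among the fits without 1 library and BPGM in 2 of these 6 fits.

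PCK2, the mitochondrial enzyme that makes phosphoenolpyruvate, was singled out after its values were seen. It stood at 17.2, 19.6 and 237.7 CPM in control replicates 1, 2 and 3 and at 92.2, 97.3 and 92.5 CPM in the knockout libraries. As in DDIT4, STC2, VEGFA and VHL, control replicate 3 lay above the knockout libraries, which lay above the other controls. HMOX1, a heme oxygenase on the list of further hypoxia genes, also chosen after its values were seen, stood at 7.17, 8.67 and 23.0 CPM against 24.5, 29.0 and 22.9 CPM, with control replicate 3 among the knockout libraries.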
